A study of Glycine max with 6 samples.

Results

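BIP2 and BIP4 are soybean genes for BiP, the binding protein of the endoplasmic reticulum (ER). Their transcripts were followed in 2 leaf cell layers. All probe sets whose only gene symbol in the platform annotation was BIP2 or BIP4 were taken. This gave 3 probe sets, of 61170 on the array and 37593 designed for soybean, for 2 of 6029 annotated genes. BIP4 (Entrez gene 547839, synonyms GmBiP4 and soyBiPD) had 2 of them. BIP2 (Entrez gene 547840, synonym GmBiP2) had 1. The name of the dimmer BIP4 probe set carries the mark "_s_at", which says that its probes match more than one transcript. It is called the shared-sequence probe set here and may also measure other BiP genes.

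The 2 layers were the paraveinal mesophyll (PVM), a single layer of large cells in the middle of the leaf that stores protein in its vacuoles, and the palisade parenchyma (PP), the elongated photosynthetic cells below the upper epidermis. Mature leaves came from untreated *Glycine max* plants kept in growth chambers at 25 °C during a 16 h day and 18 °C during an 8 h night. After fixation in ethanol and acetic acid and embedding in paraffin, cells were cut out by laser, pooled within each sample, and their RNA was amplified, labelled with biotin and hybridised to 1 Affymetrix array per sample. Each layer had 3 biological replicates. For the PP samples 1 label field names paraveinal cells, while the titles read PP1 and 2 other fields name palisade tissue, and the latter were followed.

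BiP is the HSP70-type chaperone of the ER lumen. It binds unfolded stretches of newly made secretory and vacuolar proteins and releases them in cycles of ATP binding and hydrolysis, while protein disulfide isomerases form and rearrange their disulfide bonds. In plants BiP transcripts are induced when unfolded proteins accumulate in the ER, through membrane-bound bZIP transcription factors and through IRE1, the sensor that splices a bZIP messenger RNA. In soybean, raised soyBiPD levels in transgenic plants are known to delay leaf senescence under drought.

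Markers of the labelled layers were checked first. All 23 tested probe sets of the PVM markers (vegetative storage proteins and the lipoxygenases LOXB1, LOX7 and LOX9) measured higher in PVM (median log2 difference 1.96). Of the palisade markers (antenna proteins and Rubisco activases), 8 of 11 tested probe sets measured lower, with a smaller median of -0.25. The Rubisco activase probe sets all measured lower in PVM (-0.68 to -0.23). The antenna probe sets had both signs (-0.37 to 0.21) and included all 3 that measured higher. Median intensity of the soybean probe sets ran from 34.7 to 54.3 over the 6 arrays, and background from 11.0 to 20.7. On the PVM arrays background was 11.0 to 15.5 and on the PP arrays 17.2 to 20.7, so a signal above background asked for more in PP. Background is the 95th percentile, on each array, of the probe sets carried for other organisms. PP arrays 1 and 2 were more alike (r = 0.947 across tested probe sets) than any other pair, where r ran from 0.811 to 0.885. The PVM arrays correlated with each other at r = 0.847 to 0.870. Each PVM array had a higher r with PP array 1 (0.856 to 0.878) than with any other PVM array. The 18 probe sets for hybridisation controls, which hold no leaf RNA, were brighter on the PP arrays by a mean of 0.52 on the log2 scale.

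BIP4 transcripts measured higher in PVM than in PP on both probe sets, with every PVM array above every PP array, but neither probe set passed the threshold over all soybean probe sets tested. BIP2 was dim and its layers overlapped. All 3 probe sets passed the filter, which asked for a signal above background on at least 3 of 6 arrays and was met by 25314 soybean probe sets. By limma on quantile-normalized log2 values, 0 of the 3 probe sets reached an adjusted p under 0.05, where 0.0435% of all tested probe sets did, all of them higher in PVM. At an unadjusted p under 0.05 there were 2 of 3, both of BIP4 and both higher in PVM, beside 6.53% of all tested probe sets in that direction and 5.63% in the other. In bulk samples, fewer cells of a type and less RNA per cell cannot be told apart.

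On the brighter BIP4 probe set the deposited intensity was 1148 on PVM array 1, 676 on array 2 and 1486 on array 3. On the PP arrays it was 516, 385 and 496. The lowest PVM array thus lay above the highest PP array, and the PVM arrays were spread more widely. The means were 1103 ± 407 in PVM and 466 ± 70.7 in PP (SD, n = 3 arrays each), a ratio of 2.37. After normalization the log2 difference, PVM minus PP, was 1.12 (SE 0.40, 95% interval 0.18 to 2.06), or 2.18-fold, with an adjusted p of 0.338 in limma. Signal was 20.3 to 95.8 times background on the 6 arrays, so that this probe set was well measured in both layers.

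On the shared-sequence BIP4 probe set the intensity was 360, 737 and 1006 on PVM arrays 1 to 3. On PP arrays 1 to 3 it was 151, 111 and 167. All PVM arrays were above all PP arrays by more than the whole range of the PP values. The means were 701 ± 325 in PVM and 143 ± 29.0 in PP (SD, n = 3 each), a ratio of 4.90. The log2 difference was 2.01 (SE 0.46, 95% interval 0.93 to 3.08), or 4.02-fold, with an adjusted p of 0.179 in limma. This was the largest difference among the BiP probe sets.

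On the BIP2 probe set the intensity was 122, 27.6 and 68.9 on PVM arrays 1 to 3. On PP arrays 1 to 3 it was 92.1, 31.7 and 17.6. Array 1 was the highest in both layers, PVM array 2 lay below PP arrays 1 and 2, and PP array 3 was below its background of 20.7. The means were 72.7 ± 47.1 and 47.1 ± 39.6 (SD, n = 3 each). The log2 difference was 0.56 (SE 0.55), with an adjusted p of 0.741 in limma. Its 95% interval, -0.73 to 1.84, holds both no difference and a difference as large as that of the brighter BIP4 probe set. The value rested on single arrays. Leaving out PVM array 1 gave 0.19 and leaving out PP array 3 gave 0.20, whereas leaving out PVM array 2 gave 0.86 and leaving out PP array 1 gave 1.05. A pseudocount of 64 in place of 16 gave 0.30.

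**Figure D1:**
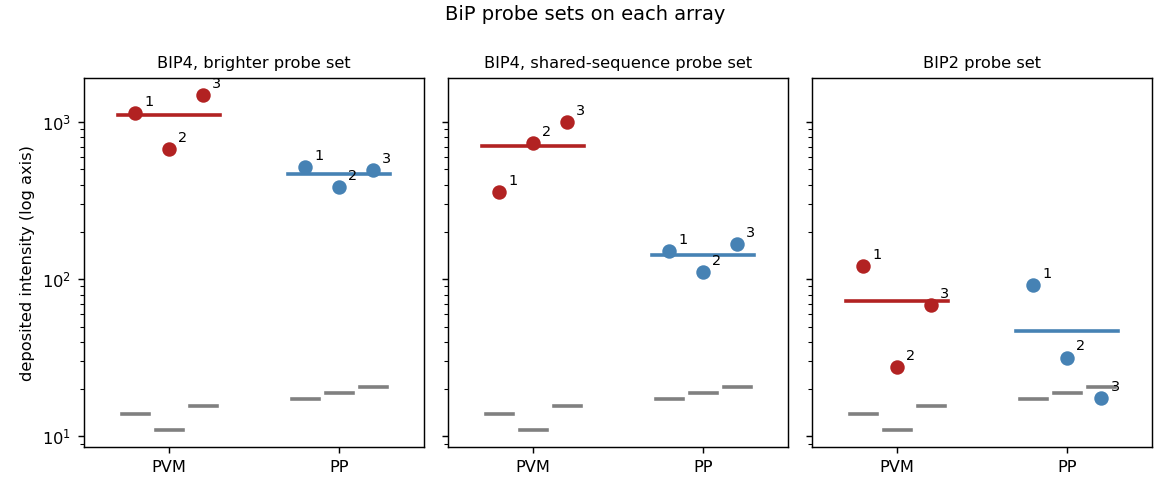
Deposited intensity (log axis) of the 3 BiP probe sets on each of the 6 arrays, with PVM in red, PP in blue, array numbers beside the points, horizontal lines for the means of 3 arrays and short grey lines for each array's background. The PVM points of both BIP4 probe sets lie above all PP points, while those of BIP2 overlap and its PP array 3 lies below background.

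Among all tested probe sets the median log2 difference was -0.06 and 46.3% measured higher in PVM. A larger difference in favour of PVM than that of the shared-sequence BIP4 probe set was found for 1.5% of the tested probe sets. For the brighter BIP4 probe set the share was 7.0%, and for the BIP2 probe set 18.6%. By p value these 3 ranked 398, 1876 and 11793 of 25314. A complete separation of the arrays of both layers, as on the BIP4 probe sets, was found for 8.62% of tested probe sets in favour of PVM, for 10.1% in favour of PP and so for 18.7% in all. In brightness the BIP4 probe sets stood in the upper part of the tested range, with 15.2% and 28.9% of probe sets brighter than they were, while 71.7% were brighter than the BIP2 probe set.

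**Figure D2:**
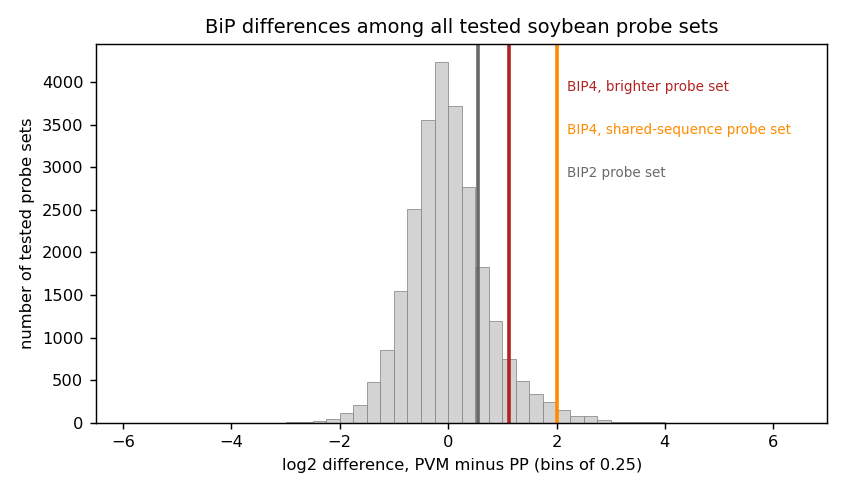
Histogram of the log2 difference, PVM minus PP, over 25314 tested soybean probe sets, with vertical lines at the 3 BiP probe sets. The lines stand at 0.56 for BIP2 and at 1.12 and 2.01 for BIP4, all right of the median of -0.06.

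The 2 BIP4 probe sets had the same sign but did not follow each other closely from array to array. Over the 6 arrays their normalized log2 values correlated at r = 0.803, and at r = 0.245 once each layer's mean was removed, as a description with no test. On the brighter one PVM array 2 was the lowest of its layer, and on the shared-sequence one it was PVM array 1. The level of the first relative to the second was 0.72 ± 0.92 in PVM and 1.6 ± 0.18 in PP on the log2 scale (SD, n = 3 each). This ratio was lower in PVM, with a difference, PVM minus PP, of -0.88 (SE 0.54). The exact permutation p was 0.30 (2-sided), where 0.10 is the smallest p that 3 against 3 arrays allow. BIP2 correlated with the brighter BIP4 probe set at r = 0.540 and with the other at r = 0.177 over the 6 arrays, and within layers at r = 0.410 and r = -0.448.

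Whether the layer difference was larger for BIP4 than for BIP2 was tested on the log2 difference between the brighter BIP4 probe set and the BIP2 probe set on each array. It was 3.77 ± 0.64 in PVM and 3.2 ± 0.82 in PP (SD, n = 3 each). The layers differed by 0.57 (SE 0.60), with an exact permutation p of 0.50 (2-sided). With the other BIP4 probe set the layers differed by 1.45 (SE 0.97, exact permutation p = 0.30). With 3 against 3 arrays no p under 0.10 was possible, so these tests could not have passed at 0.05 and do not show that the genes act alike. The value of 0.57 became 0.15 when PP array 1 was left out, 0.23 when PVM array 3 was, 0.86 when PVM array 1 was and 0.96 when PP array 3 was. It was 0.37 with PP arrays 1 and 2 averaged and 0.36 with a pseudocount of 1.

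The sign of all 3 differences was the same under the 16 alternatives of processing and of arrays left out. For the shared-sequence BIP4 probe set the log2 difference ran from 1.66 to 2.43 with adjusted p values of 0.0932 to 0.502 in limma. For the brighter one it ran from 0.85 to 1.47 with adjusted p values of 0.213 to 0.654. The smallest adjusted p of each came from a fit that lets the variance depend on intensity. The difference of BIP2 ran from 0.19 to 1.05. With the arrays left as deposited, without quantile normalization, the 3 values were 2.07, 1.16 and 0.52.

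**Figure D3:**
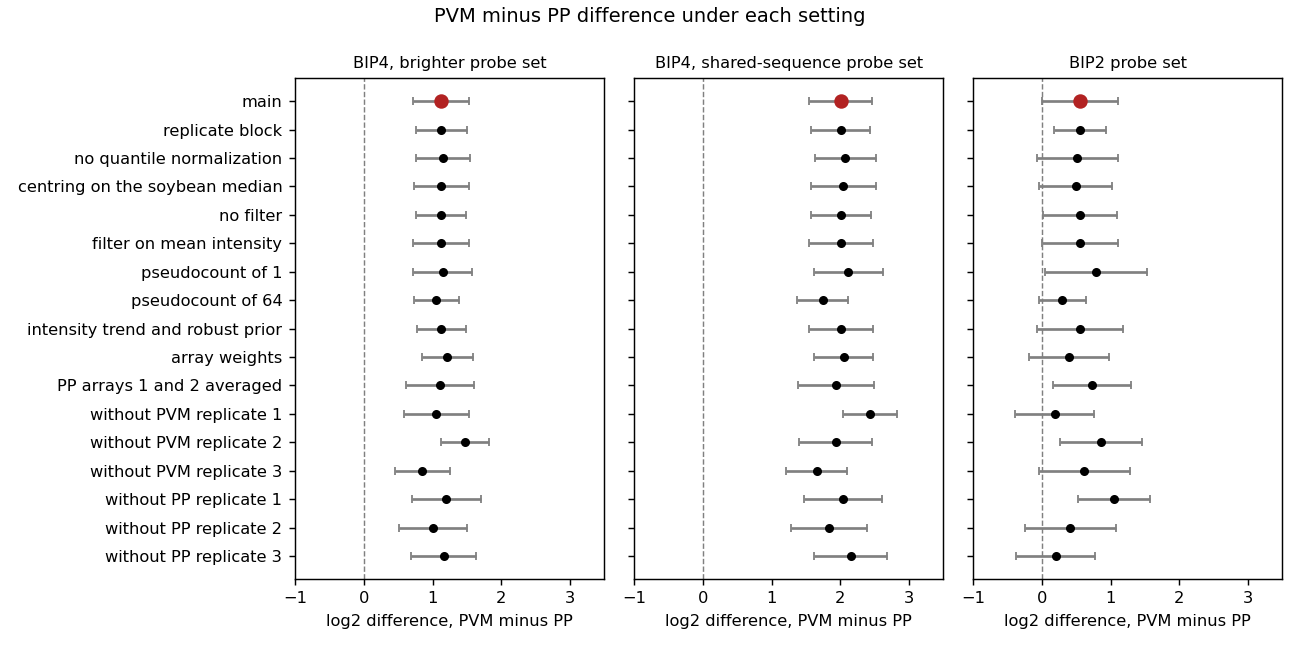
Log2 difference, PVM minus PP, of the 3 BiP probe sets (points, with the SE from limma as bars) in the main setting, in red, and under 16 alternatives. Both BIP4 probe sets keep a distance from 0 that exceeds 1 SE under each of them, and the bars of BIP2 reach 0 or below it under several.

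Measures of RNA length and of other cell types were set beside these differences. The log2 ratio of the 3' to the 5' actin control probe set, a measure of shortened RNA, was 1.14, 0.58 and 0.68 on the PVM arrays and 1.67, 1.68 and 1.21 on the PP arrays, without overlap. An older pair of actin control probe sets gave -0.15 to 1.67 in PVM and 0.20 to 1.18 in PP, with overlap. The other control transcripts above background at both ends overlapped too. For GAPDH, 3' over middle, the ratio was 1.45 to 1.98 in PVM and 0.33 to 1.68 in PP, and for glutathione transferase, 3' over 5', it was 2.59 to 3.51 and 2.92 to 3.18. Of markers of other cell types, the phloem list had 2 of its 5 symbols in the annotation, SUT1 and SS, and 4 of 5 tested probe sets measured higher in PVM. Summed over all 6 phloem probe sets, tested or not, the intensity was 2182, 843 and 366 on PVM arrays 1 to 3 and 391 to 535 on the PP arrays. The guard cell list had 1 of 4 symbols, MYB60, with 2 of 2 tested probe sets higher in PVM. Summed over all 4 MYB60 probe sets, the intensity was 35.6 to 433 in PVM and 24.0 to 91.5 in PP. The phloem sum was highest on PVM array 1. The MYB60 sum was highest on PVM array 3, as were both BIP4 probe sets. Over the PVM arrays the shared-sequence BIP4 probe set had the same order as that sum (35.6, 90.9 and 433 on arrays 1 to 3). The summed intensity of the PVM marker probe sets rose in this order too (96495, 101799 and 108390). The palisade marker sum, at 77205, 66694 and 93962 on PVM arrays 1 to 3, had the order of the brighter BIP4 probe set. So did the median intensity of the soybean probe sets (44.6, 34.7 and 54.3). All these sums are of deposited intensities without normalization, and orders over 3 arrays are given as a description only. The xylem and epidermis lists had no symbol in the annotation. The part of RNA length or of other cell types in the BiP differences was not tested.

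Among other genes of ER folding and ER stress, 0 of 23 tested probe sets passed the threshold in limma, beside 0.0435% of all tested probe sets. Of the 23, 10 were of disulfide isomerases, 1 was of CDC48 and 12 were of stress signalling genes. Apart from BIP2 and BIP4, the lists of ER folding and ER stress genes matched 25 probe sets of 15 genes, of which 23 probe sets of 14 genes were tested. Of these, 17 measured higher and 6 lower in PVM. Their log2 differences had a median of 0.26, beside -0.06 over all tested probe sets, and ran from -0.80 to 1.33. The sign turned under at least 1 alternative for 7 of the 23, which were 1 probe set each of PDIL-2, PDIM-1, PDIQ-1A, NAC6 and NRP-B and both of BZIP28. At an unadjusted p under 0.05 in limma, 1 of 23 was higher in PVM and 0 were lower, beside 12.2% of all tested probe sets in either direction. The normalized values of the layers did not overlap for 4 of the 23, beside 18.7% of all tested probe sets in either direction. That median became 0.13 when PP array 3 was left out, 0.16 when PP array 2 was and 0.17 with array weights. Calnexin, calreticulin, GRP94 and cytosolic HSP70 genes had no symbol that matched in the annotation and were not analysed here.

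Protein disulfide isomerases, which catalyse oxidative folding beside BiP, were represented by 10 tested probe sets of 5 genes. In this list 7 measured higher and 3 lower in PVM. The median was 0.24 on the log2 scale, and the smallest adjusted p was 0.468 in limma. PDIL-1 (LOC100170705), a classical isomerase with thioredoxin-like domains, had intensities of 762, 1239 and 1144 in PVM and of 647, 594 and 657 in PP on one probe set. Its PVM arrays were all above its PP arrays, and the log2 difference was 0.68 (SE 0.33). On the other PDIL-1 probe set, marked for shared sequence, the difference was 0.26 (SE 0.30), and 0.16 when PP array 2 was left out. Its layers overlapped in intensity but not after normalization.

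PDIM-1, another isomerase, differed by 1.33 (SE 0.78) on a probe set where PP array 3 was below background. This became 0.52 when PP array 3 was left out and 0.81 when PVM array 2 was. On its second probe set the difference was 0.23 (SE 0.43), and -0.15 to 0.51 with single arrays left out. The probe set of LOC100814374 (synonym GmPDIL6) differed by -0.80 (SE 0.49), the lowest value of the list, and by -0.27 when PVM array 3 was left out. PDIL-2 had 4 probe sets that disagreed in sign, at -0.49, -0.35, 0.02 and 0.31, and single arrays moved each of them by more than 1.5 times. PDIQ-1A differed by 0.59 (SE 0.79), or by -0.08 to 1.31 with single arrays left out, and its PVM array 2 and PP array 3 were below background. A probe set of LOC100526845 (synonym PDIL-3b) was above background on 1 array and was not tested.

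The list of ER stress signalling genes had 12 tested probe sets of 8 genes, 9 higher and 3 lower in PVM. Their median was 0.28 on the log2 scale and the smallest adjusted p was 0.338 in limma. NRP-A, an asparagine-rich protein of the pathway by which ER and osmotic stress lead to cell death in soybean, had intensities of 279, 84.9 and 184 in PVM and of 40.6, 72.5 and 63.6 in PP on its shared-sequence probe set. The layers did not overlap there, the log2 difference was 1.25 (SE 0.45), and its unadjusted p of 0.0250 was the smallest of these lists. On the other NRP-A probe set the difference was 0.75 (SE 0.90) with overlap, and leaving out PP array 2 gave 0.10, PVM array 3 0.16 and PP array 3 1.66. NRP-B, its relative, differed by 0.11 (SE 0.62), or by -0.48 to 0.57 with single arrays left out.

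ERD15, a transcription factor that acts on the NRP-B promoter in soybean, measured lower in PVM on both probe sets. The brighter one had intensities of 2629, 2902 and 1983 in PVM and of 3863, 3616 and 4278 in PP, and differed by -0.45 (SE 0.31) without overlap. The other differed by -0.67 (SE 0.34). NAC6, a NAC transcription factor of the same pathway, differed by 0.44 (SE 0.82), or by -0.18 to 1.13 with single arrays left out.

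Among bZIP factors, BZIP37 had intensities of 221, 146 and 286 in PVM and of 126, 84.7 and 153 in PP. Its difference on the log2 scale was 0.69 (SE 0.38), or 0.45 to 0.90 with single arrays left out, and 1 PVM array lay below 1 PP array. BZIP68, whose listed synonyms GmbZIP68s and GmbZIP68u name its spliced and unspliced forms, differed by 0.83 (SE 0.60) on its tested probe set and by 0.19 when PP array 3 was left out. BZIP38 differed by 0.20 and 0.35, and ran from 0.10 to 0.32 and from 0.20 to 0.54 in the same way. BZIP28 differed by -0.14 and 0.12, and ran from -0.64 to 0.68 and from -0.07 to 0.32 with single arrays left out. CDC48, the ATPase that draws misfolded proteins out of the ER for degradation, was the only gene matched for entry into and exit from the ER, and differed by 0.28 (SE 0.34), by 0.09 when PP array 2 was left out and by 0.13 when PVM array 3 was.

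**Figure D4:**
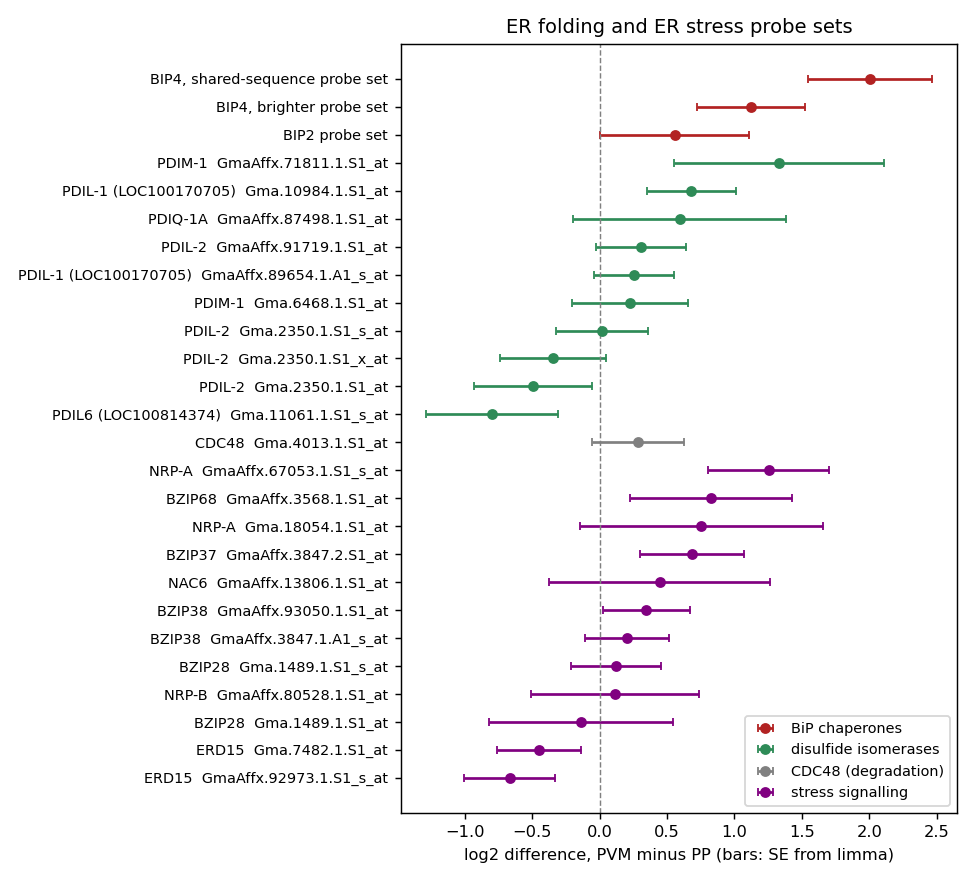
Log2 difference, PVM minus PP, with the SE from limma as bars, for the 3 BiP probe sets (red) and the 23 tested probe sets of disulfide isomerases (green), CDC48 (grey) and stress signalling genes (purple). The shared-sequence BIP4 probe set has the largest value, 2.01, and the other lists range from -0.80 to 1.33.

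Genes with array patterns most like those of BIP4 and BIP2 were sought among 1114 tested probe sets of 692 genes that have a symbol other than a LOC number. With 6 arrays high correlations arise easily, and the values are given as a description. For the brighter BIP4 probe set the 5 closest were GAI2 (r = 0.992), PR1-7, a pathogenesis-related protein (0.980), the transcription factor WRKY39 (0.972), UGT708D1, a glucosyltransferase of flavonoid-type substrates (0.968), and SCA2 (0.963). With the layer means removed, r stayed between 0.930 and 0.975. In all 5, as in BIP4, PVM array 2 was the lowest of the PVM arrays. The 5 were picked by r over these same 6 arrays. A high r within layers and a low PVM array 2 are therefore no separate finding. The log2 differences were 0.91 for GAI2, 0.85 for WRKY39, 0.63 for UGT708D1 and 0.66 for SCA2. The adjusted p values of these ran from 0.385 to 0.529 in limma. The probe set of PR1-7 was above background on the 3 PVM arrays and on no PP array, with an adjusted p of 0.160 in limma. Its mean was at least 6.51-fold higher in PVM, at 283 ± 218 there (SD, n = 3). This bound sets the PVM mean against the lowest level above background on each PP array. With the second BIP4 probe set the same 5 correlated at 0.641 to 0.848.

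For BIP2 the closest were FAD7-2, a plastid fatty acid desaturase (r = 0.942), P34, a papain-like protease relative (0.933), BZIP108 (0.912), ANN11, an annexin (0.911), and PAP (0.905). Of these only PAP was above background on all 6 arrays, at 361 ± 140 in PVM and 235 ± 96.1 in PP (SD, n = 3 each), and the other 4 were above it on 3 arrays. All 5 were highest on PVM array 1, as was BIP2, which again is tied to how they were picked. Their log2 differences between the layers ran from 0.50 to 0.65. No gene was among the 5 closest to both BIP4 and BIP2.

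**Figure D5:**
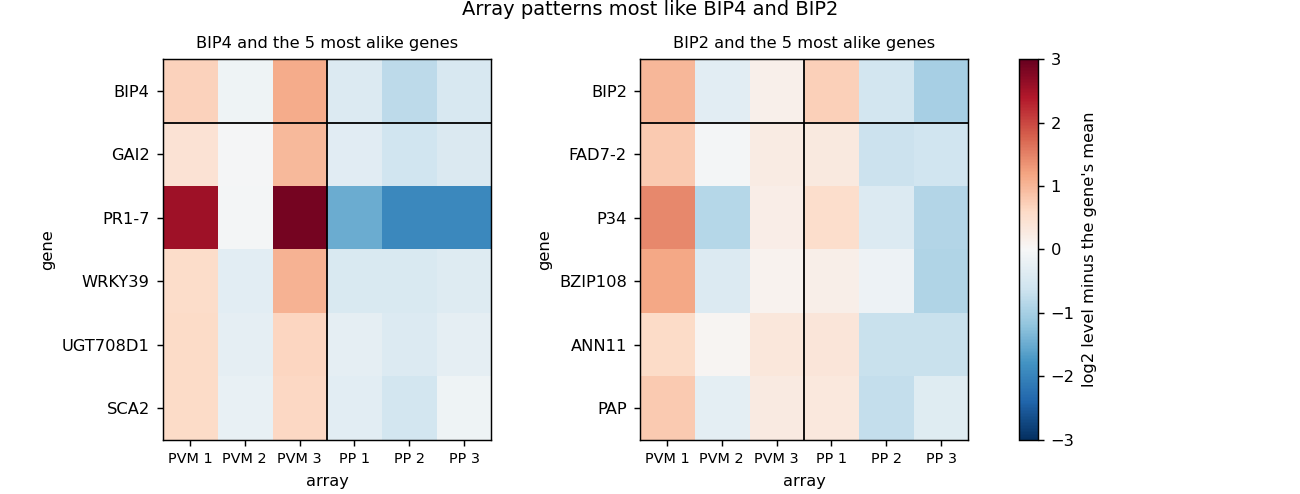
Normalized log2 level minus each gene's mean over the 6 arrays (colour scale), for the brighter BIP4 probe set and the 5 genes most like it (left) and for BIP2 and the 5 genes most like it (right). The left rows are highest on PVM arrays 1 and 3, and the right rows are highest on PVM array 1.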

How the data were processed

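RNA of 3 PVM and 3 PP samples was measured on 6 one-colour arrays. The authors deposited linear probe-set intensities. The sources used here name no summarisation program. Their 2% trimmed mean was 125 on each array (125.013 to 125.016), which points to a common scaling by the authors. Intensities were taken as log2(intensity + 16) and quantile-normalized over all 61170 probe sets. This scale understates differences of dim probe sets. Means and SDs are of deposited intensities. Soybean probe sets above background (95th percentile of 23350 probe sets for other organisms) on at least 3 arrays entered a fit with limma 3.58.1 (lmFit and eBayes, 2-sided, R 4.3.3), with p values adjusted by Benjamini-Hochberg over all of them, at 0.05. The procedure was tested on simulated data. The number of arrays limits the precision. Single contrasts used exact permutation tests.

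Symbols came from the platform annotation (9047 probe sets, of which 8652 matched a RefSeq gene table for Glycine_max_v4.0). The members and lists were chosen with earlier results of these data known. Named were all BiP probe sets, per list the 4 genes with the smallest p (the other listed genes are given by value too), and the 5 genes most correlated with each member. Same-numbered replicates deviated together only very weakly (r = 0.016 to 0.049), though above all other pairs (r = -0.042 to 0.010). The numbers were not taken as pairs. Alternatives were a replicate block, 2 other scalings, 2 other filters, pseudocounts of 1 and 64, an intensity trend with robust prior, array weights, PP arrays 1 and 2 averaged, each array left out and, for lists, 1 probe set per gene and unshared probe sets.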

Additional observations from a re-analysis of the deposited data

How the results depend on the processing

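The number of soybean probe sets past the threshold in limma was 11 (all higher in PVM). It was 0 with the replicate block, 0 with PP arrays 1 and 2 averaged, 5 without a filter, 1 with a pseudocount of 1, 57 with a pseudocount of 64, 149 with the intensity trend and robust prior, and 0 to 3 with single arrays left out, where the 3, all among the 11, came from leaving out PVM array 2 and each other array left 0. No BiP probe set passed under any of these, and none changed its sign. With the replicate block the adjusted p was 0.280 for the shared-sequence BIP4 probe set, 0.360 for the brighter one and 0.614 for BIP2, and no call on these changed. Each PVM array's deviations did not correlate above 0.1 with those of its same-numbered PP array, and the block is given as an alternative only. BIP2 lay near background on several arrays, which limits what its values can show.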
